A study of Arabidopsis thaliana with 20 samples.

Results

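PIFI, CCB3, NdhS and PSB27 are nuclear genes for proteins of the thylakoid complexes, the membrane machines of photosynthesis in the chloroplast. NdhS is a subunit, and the others are auxiliary or assembly factors. They are 4 of the 692 array rows whose annotation lists exactly 1 gene, out of 3439 rows in all, and no row with several genes lists any of them. The rows were AT3G15840 (PIFI), AT5G36120 (CCB3), AT4G23890 (NdhS) and AT1G03600 (PSB27). They were chosen from an earlier fit of these same arrays in which PIFI and CCB3 were called higher and NdhS and PSB27 lower in atpc1-1 than in WT, as were 24.5% of all tested rows in either direction, so their differences between the genotypes are given as a description and are not tested.

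The array measured total RNA of Arabidopsis thaliana in 10 columns labelled atpc1-1, a mutant labelled as lacking the ATP synthase γ subunit, and 10 columns labelled WT. Both genotypes are of ecotype Columbia-0 and were grown on MS medium, a sterile salt medium for plant culture. Tissue, plant age and light are not stated in the labels. By their deviations from the genotype mean, adjoining columns (1 with 2, 3 with 4, and so on) correlated best with each other in 10 of 10 atpc1-1 and 10 of 10 WT columns. They were averaged to 5 replicates per genotype. This pairing is inferred from the values and not stated in the labels, which number 10 columns per genotype. In atpc1-1 3 of 5 partner correlations of these deviations were below 0 (-0.0272, -0.0658 and -0.0437). The highest correlation of an atpc1-1 column with any column but its partner was -0.145 to -0.0726. Every n of 5 and every SE below rests on the pairing.

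The chloroplast ATP synthase makes ATP from the proton gradient that photosynthetic electron transport builds across the thylakoid membrane. Electrons pass from photosystem II through the cytochrome b6f complex to photosystem I, and the NADH dehydrogenase-like (NDH) complex returns electrons from the stroma to plastoquinone in cyclic flow and chlororespiration. Each complex joins nuclear and plastid-encoded subunits and needs assembly factors that are not part of the finished complex.

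The values are intensities whose scale the sources do not explain. Column medians were 0.130 to 0.224 in atpc1-1 and 0.339 to 0.493 in WT, and 5.70% to 20.8% of rows stood at 0 in atpc1-1 columns against 3.63% to 4.36% in WT columns, so the precision of dim rows is limited. Values called log2 below were quantile normalised over the 20 columns, with 0 treated as missing. The targeted gene could not be checked, because the row that lists ATPC1 also lists ATPC2. Its log2 value averaged -1.10 ± 0.75 in atpc1-1 and -1.28 ± 0.52 in WT (SD, n = 5 each), a difference of 0.18 within the replicate spread (limma adjusted p = 0.759). Of the marker genes for green tissue, 1 of 12 (LHCB1.5) had a row of its own, and none of 7 root, 5 flower and pollen or 4 seed markers had one, so the tissue could not be checked against other organs. LHCB1.5 lay at the 98.9th to 99.4th percentile of the rows above 0 in atpc1-1 columns and at the 98.4th to 99.7th in WT columns. The labels do not say what was harvested. In total RNA, fewer cells of a type and less RNA per cell cannot be told apart.

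Of the NDH-linked pair, PIFI stood higher in atpc1-1 and NdhS lower. PIFI, needed for the NDH-mediated reduction of plastoquinone that shows as a fluorescence increase after the light is turned off, was a dim row. Its deposited intensity had a lowest, median and highest value of 0.0411, 0.119 and 0.429 over 10 atpc1-1 columns, against 0.0196, 0.0678 and 0.140 over 10 WT columns. The column ranges overlapped, and both columns of atpc1-1 replicate 1, at 0.343 and 0.429, were the brightest of all 20.

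On the log2 scale PIFI stood at -1.11, -3.00, -3.42, -1.78 and -2.17 in atpc1-1 replicates 1 to 5, against -3.95, -5.76, -5.45, -6.01 and -3.75 in WT replicates 1 to 5. All 5 atpc1-1 replicates lay above all 5 WT replicates. Of the 3298 tested rows 17.6% had genotypes that did not overlap, 7.37% with atpc1-1 above WT. The difference, atpc1-1 minus WT, was 2.69 (SE 0.56, n = 5 each), or 6.45-fold, while the ratio of the mean deposited intensities was 2.40. Close intensities did not give the same log2 value in both genotypes after normalisation: 0.113 in atpc1-1 column 10 became -2.09, and 0.111 in WT column 10 became -3.62. By rank, where 1 is the brightest of 3439 rows, PIFI held places 916 to 2761 in atpc1-1 columns and 2906 to 3240 in WT columns, with no overlap. Up to 20.8% of rows stood at 0 in an atpc1-1 column, so a row above 0 could not take the last places there. Overlap by rank was thus not possible in every atpc1-1 column. The share of all rows with ranks that did not overlap was not counted. Among the rows above 0 of a column the percentile of PIFI was 9.92 to 66.7 in atpc1-1 and 1.58 to 12.1 in WT, where the ranges did overlap.

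NdhS, the subunit that forms part of the ferredoxin-binding site of the NDH complex, was among the brightest rows of the array in both genotypes. Its deposited intensity had a lowest, median and highest value of 7.81, 8.50 and 11.8 in atpc1-1 columns, against 9.69, 11.5 and 13.6 in WT columns. The overlap came from atpc1-1 replicate 1, at 11.3 and 11.8, since the other 8 atpc1-1 columns lay below the lowest WT column.

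NdhS had log2 values of 3.26, 3.12, 2.92, 3.10 and 2.79 in atpc1-1 replicates 1 to 5, against 4.14, 3.78, 3.58, 3.88 and 3.58 in WT replicates 1 to 5. The replicates did not overlap, as in 10.3% of tested rows with atpc1-1 below WT. The difference was -0.76 (SE 0.22, n = 5 each). Within its column NdhS ranked between places 41 and 74 in atpc1-1, against 24 to 40 in WT, so every atpc1-1 column placed it behind every WT column. How many other rows had ranks without overlap was not counted. The size and sign of the NdhS difference depended on scaling: it was -0.36 on the deposited scale, against -1.22 for the median of all rows, and 0.81 after each column was centred on its median, where that median was -0.05. NdhS was therefore lower in rank, whereas its difference on the deposited scale (SE 0.21) was smaller in size than that of the middle row of the array.

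**Figure D1:**
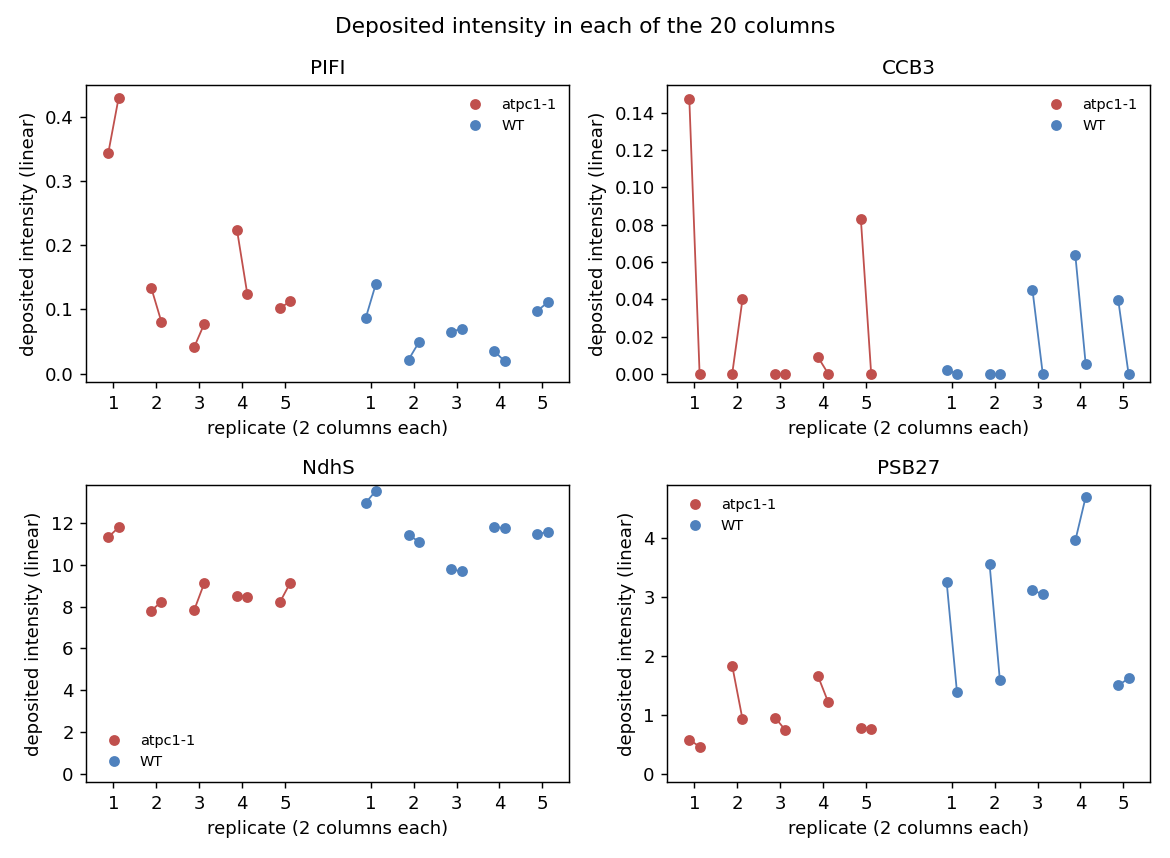
Deposited intensity (linear scale, y axis) of PIFI, CCB3, NdhS and PSB27 in every column, with atpc1-1 replicates 1 to 5 at the left and WT replicates 1 to 5 at the right of each panel. Points are columns and a line joins the 2 columns of a replicate; 6 of 10 atpc1-1 and 5 of 10 WT columns of CCB3 lie at 0, and columns of PSB27 in WT replicates 1 and 2 lie far apart.

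CCB3, an assembly factor for the attachment of heme to cytochrome b6 that the RefSeq table also lists as YLMG3, stood at 0 in 6 of 10 atpc1-1 columns and 5 of 10 WT columns. It was above 0 in 4 of 10 atpc1-1 columns, at 0.148 in column 1, 0.0400 in column 4, 0.00897 in column 7 and 0.0828 in column 9. It was above 0 in 5 of 10 WT columns, at 0.00216 in column 1, 0.0451 in column 5, 0.0637 in column 7, 0.00539 in column 8 and 0.0396 in column 9. In none of the 5 atpc1-1 pairs were both columns above 0, and in the 1 WT pair where both were, they differed 11.8-fold.

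The log2 difference of CCB3 was 3.30 (SE 1.05) over 4 replicates of each genotype, the others having no value. The atpc1-1 replicates with a value stood at -2.30, -4.53, -5.41 and -2.47, against -9.98, -5.97, -6.56 and -5.41 in WT. The lowest atpc1-1 and highest WT replicate thus met at -5.41. That value stood for an intensity of 0.00897 in atpc1-1 column 7 and of 0.0396 in WT column 9, so the normalised scale brought together intensities that differed in the deposited values. With zeros included, the mean deposited intensity was 0.0279 ± 0.050 in atpc1-1 and 0.0156 ± 0.0242 in WT (SD, n = 10 columns each), with an SD above the mean in both genotypes. Among the 37 tested rows above 0 in fewer than 10 of the 20 columns, 43.2% were called, against 24.5% of all tested rows.

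PSB27, a lumenal protein bound to photosystem II during its assembly and repair, stood lower in atpc1-1. Its deposited intensity had a lowest, median and highest value of 0.456, 0.852 and 1.83 in atpc1-1 columns, against 1.39, 3.08 and 4.70 in WT columns. The ranges overlapped through atpc1-1 columns 3 and 7, at 1.83 and 1.66, and WT columns 2, 4, 9 and 10, at 1.39, 1.59, 1.498 and 1.62.

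By replicate, PSB27 had log2 values of -0.73, 0.69, -0.08, 0.68 and 0.03 in atpc1-1, against 0.94, 1.18, 1.81, 2.21 and 0.56 in WT. Only WT replicate 5 lay within the atpc1-1 range. The difference was -1.22 (SE 0.38, n = 5 each), or 2.33-fold, and without WT replicate 5 it was -1.42. Of the WT pairs, replicate 1 had columns of 3.25 and 1.39 and replicate 2 had columns of 3.57 and 1.59, so that partner columns differed up to 2.35-fold in WT and up to 1.98-fold in atpc1-1. PSB27 ranked between places 255 and 854 in atpc1-1 columns and between 110 and 530 in WT columns. After median centring the difference was -0.32, and on the deposited scale PSB27 stood at -1.48 against -1.22 for the median of all rows.

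**Figure D2:**
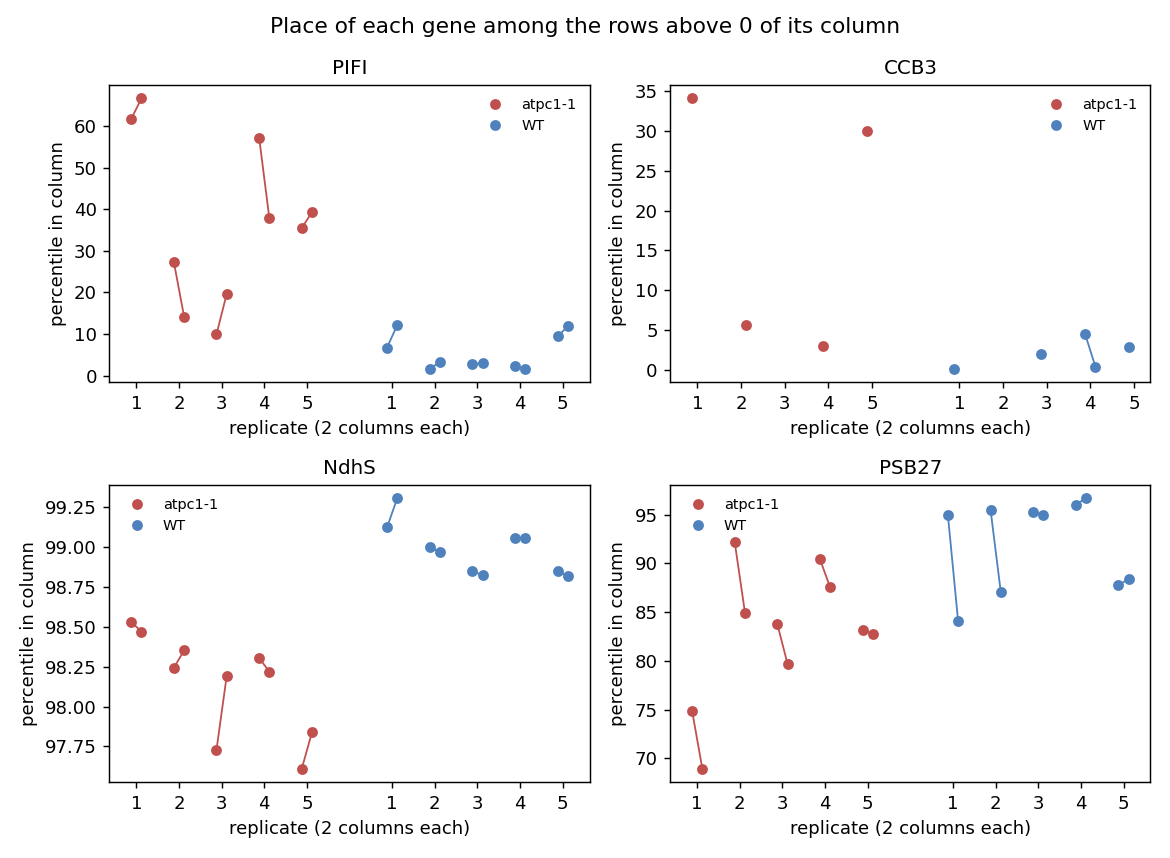
Percentile of each gene among the rows above 0 of its column (y axis, scaled separately in each panel), by replicate, with atpc1-1 left and WT right; points are columns and lines join the 2 columns of a replicate. NdhS lies between 97.6 and 98.5 in atpc1-1 and between 98.8 and 99.3 in WT with no overlap, whereas PIFI and PSB27 overlap between the genotypes. The share of all rows whose percentiles do not overlap was not counted.

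Partner columns showed how well each row repeated. In a fit on averaged pairs, noise between partner columns adds to the replicate spread by which rows are called. The measure is therefore not independent of the choice of genes. The median absolute log2 difference between partner columns was 0.08 in atpc1-1 and 0.04 in WT for NdhS, 0.35 in atpc1-1 and 0.24 in WT for PSB27, and 0.75 in atpc1-1 and 0.53 in WT for PIFI. Over all rows the median of this value was 0.48 in atpc1-1 and 0.23 in WT. NdhS therefore repeated better than the typical row in both genotypes, PIFI repeated worse in both, and PSB27 was close to the typical row in WT. Rows of like brightness were not set apart. The bright rows LHCB1.5 (0.04 in atpc1-1 and 0.09 in WT) and PSBW (0.07 and 0.0009) also repeated better than the typical row. PSBW partner columns in WT held the same or adjoining ranks, which quantile normalisation gives nearly the same value. Their deposited intensities differed 1.02- to 1.07-fold. CCB3 had no atpc1-1 pair with 2 values.

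The other thylakoid genes with a row of their own numbered 7, all of which were tested, and 1 of them was higher, 0 were lower and 6 did not pass. The background was 10.2% of tested rows called higher and 14.3% called lower by limma at an adjusted p under 0.05. At an unadjusted limma p under 0.05 the counts over these genes were again 1 and 0, against 540 higher and 775 lower of all 3298 tested rows. Their median log2 difference was -0.16, against -0.19 over all tested rows. The called gene was PSBY, a small photosystem II protein, at 1.29 ± 0.17 in atpc1-1 and 0.25 ± 0.17 in WT (SD, n = 5 each; difference 1.04, SE 0.21, limma adjusted p = 0.00781).

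Beside PIFI and NdhS, the NDH genes with their own rows were NdhN, a subunit of the stromal arm of the complex, and CRR41, a factor for the assembly of that arm. NdhN had log2 values of -1.86, -1.33, -2.09, -2.23 and -1.28 in atpc1-1 replicates, against -1.83, -2.66, -2.20, -2.40 and -1.51 in WT replicates. CRR41 had log2 values of -1.32, -1.08, -1.75, -1.54 and -1.55 in atpc1-1, against -0.75, -1.17, -1.52, -1.54 and -1.44 in WT. In both genes the genotypes overlapped, with differences of 0.36 for NdhN (SE 0.30, limma adjusted p = 0.409) and -0.16 for CRR41 (SE 0.25, limma adjusted p = 0.653). On the deposited scale NdhN at -0.86 and CRR41 at -1.26 were called lower (limma adjusted p = 0.0311 and 0.00479), against a median of -1.22 over all rows. On that scale 1896 of 3298 tested rows were called lower.

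LPA19, a relative of PSB27 that acts in the maturation of the D1 protein of photosystem II, did not pass the test. It stood at -4.92, -1.58, -2.10, -1.73 and -0.86 in atpc1-1 replicates, against -1.76, -2.25, -2.40, -2.20 and -0.90 in WT replicates. The lowest value came from atpc1-1 replicate 1, where 1 of 2 columns was at 0. The LPA19 difference was -0.34 (SE 0.66, limma adjusted p = 0.731) and turned to 0.33 without that replicate (limma adjusted p = 0.547), against -1.22 for PSB27. Whether the paired values of PSB27 and LPA19 differ was not tested, because PSB27 was chosen on this contrast. The remaining genes, of the photosystems and the antenna, had differences of -0.26 for PSBW, -0.18 for LHCB1.5 and -0.04 for PSAN, none of which passed (limma adjusted p = 0.440, 0.743 and 0.922). With median centring these 3 turned positive and were called higher, at 1.61, 1.68 and 1.08 (limma adjusted p = 0.00245, 0.0186 and 0.0188). In that setting 497 of 3298 tested rows were called higher.

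**Figure D3:**
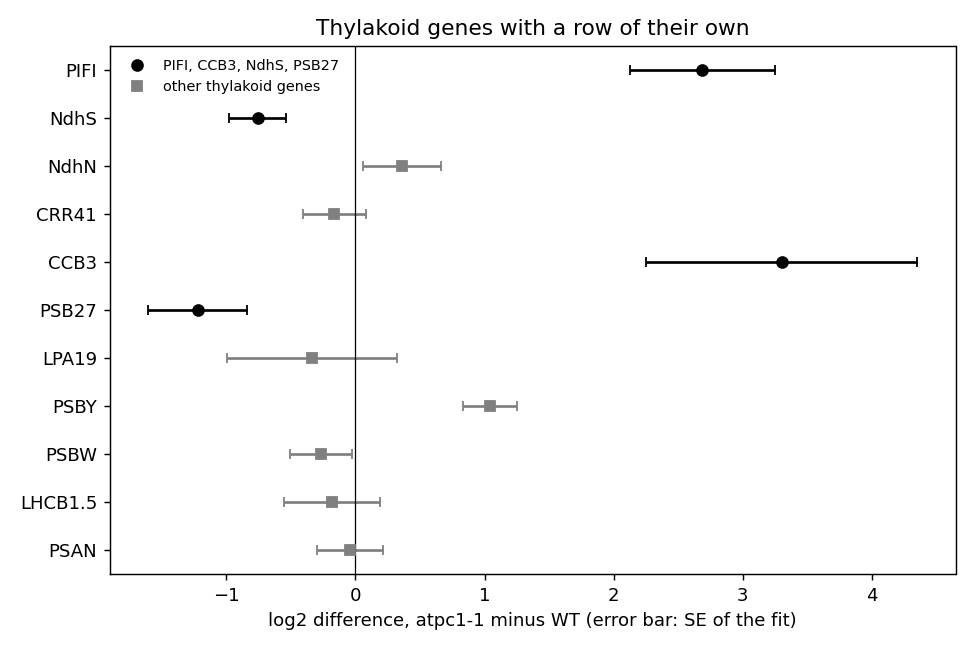
Log2 difference, atpc1-1 minus WT, of the 11 thylakoid genes with a row of their own; points are fitted differences after quantile normalisation and bars their SE. PIFI at 2.69 and CCB3 at 3.30 lie at the right with the wide bar of CCB3 (SE 1.05), PSB27 at -1.22 and NdhS at -0.76 lie at the left, and of the other genes PSBY at 1.04 stands apart from 0.

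Rows with a pattern like that of PIFI, NdhS or PSB27 were sought by Pearson correlation over the 10 replicates, among the other 523 rows that list 1 gene and have a value in every replicate; CCB3 has too few values. The replicates share arrays and fall into 2 genotypes, so a high r can come from the genotype difference alone. The r of the deviations from the genotype means is given beside it. The rows named were picked for the highest r among those searched. Because r includes these deviations, the choice can also raise the value within genotypes, which is therefore not a separate check. The spread of r over all rows searched is not given, so the values are a description. Closest to PIFI were CYN, the cyanase that breaks down cyanate (r = 0.933, within genotypes 0.759), AT5G62840 (0.927, within genotypes 0.884) and AT2G39670 (0.906, within genotypes 0.693). Closest to NdhS were AT1G51080 (0.957, within genotypes 0.834), AT4G32060 (0.944, within genotypes 0.689) and AT5G61470 (0.942, within genotypes 0.956). Closest to PSB27 were AT1G64430 (0.946, within genotypes 0.897), AT5G64150 (0.917, within genotypes 0.877) and AT5G36470 (0.912, within genotypes 0.831).

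Pairs among the 3 genes themselves were not picked for a high r, so their r cannot be set against the values above. NdhS and PSB27, both lower in atpc1-1, had r = 0.641 over the 10 replicates and -0.05 within genotypes. PIFI and NdhS had r = -0.678 over the replicates and 0.269 within genotypes, and PIFI and PSB27 had -0.857 over the replicates and -0.654 within genotypes.

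The direction of each difference was set beside that of the whole array, mainly on the deposited scale and after quantile normalisation. PIFI was 2.40 above the median of all rows on the deposited scale and 2.88 above it after quantile normalisation. CCB3, at 0 in many columns, was 2.70 and 3.49 above it, and 0.84 above it with a pseudocount. The NdhS difference minus that median was 0.86 on the deposited scale and -0.57 after quantile normalisation. For PSB27 it was -0.26 on the deposited scale and -1.03 after quantile normalisation. With mean scaling and median centring the PSB27 value was -0.26 and -0.27. With cyclic loess and the other treatments of zeros it was -1.03 to -0.97. On the deposited scale the -0.26 of PSB27 was smaller than the SE of its difference (0.36), and the sign for NdhS depended on the scaling.

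**Figure D4:**
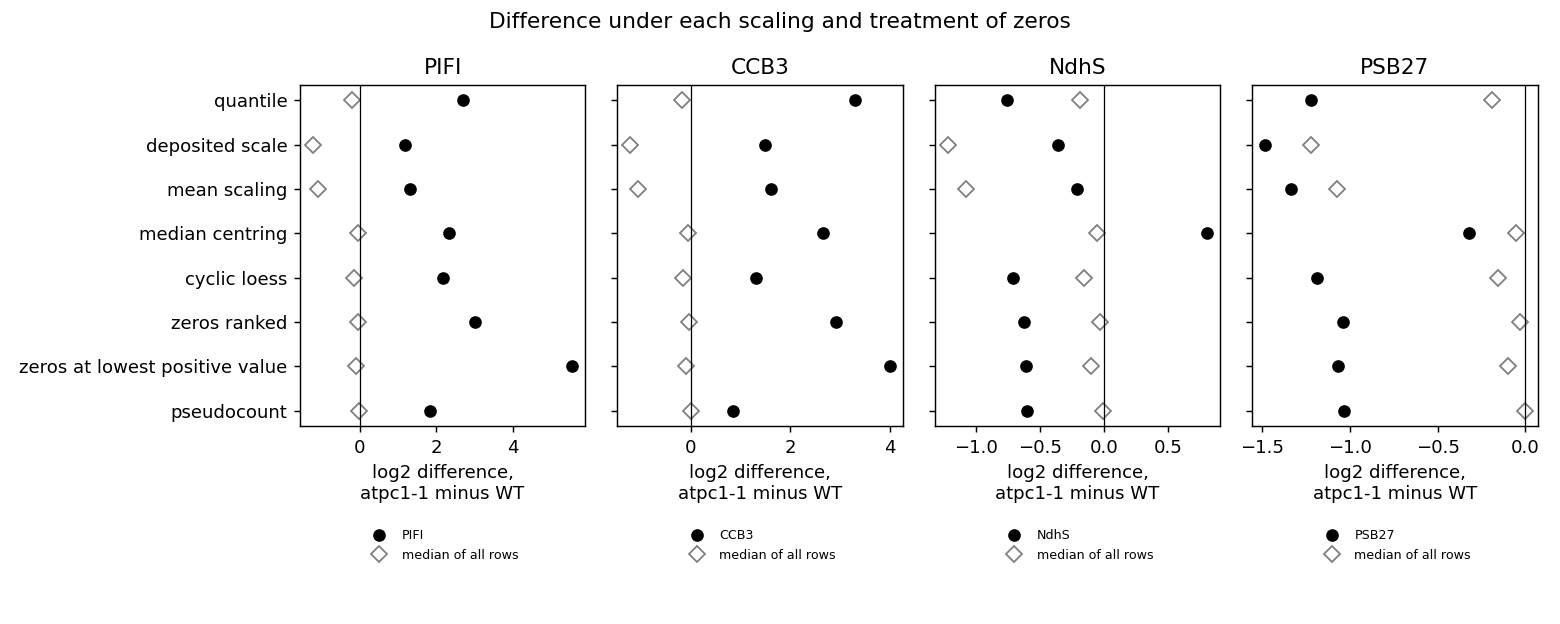
Log2 difference, atpc1-1 minus WT (x axis, scaled separately in each panel), of each gene (filled circles) and the median of all tested rows (open diamonds) under 8 scalings or treatments of zeros. PIFI and CCB3 stay right of 0 and PSB27 left of it in all 8, and NdhS is left of 0 in all but median centring, where it is 0.81.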

How the data were processed

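The deposited table holds 1 intensity per row and column on a linear scale; no source used here says how the authors corrected, scaled or filtered it. Gene names came from the platform annotation, updated through RefSeq's TAIR10.1 gene table (690 of 692 rows with 1 gene matched). Sequences and coordinates were not used here.

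Intensities were log2 transformed with 0 as missing, quantile normalised (limma 3.58.1, R 4.3.3) and averaged over adjoining columns. Partner correlations of deviations were 0.177 to 0.733 in WT but -0.0658 to 0.197 in atpc1-1. Rows with at least 3 of 5 replicate values per genotype were tested (3298, with 141 left out, and all 4 genes kept), by lmFit and eBayes with Benjamini-Hochberg adjustment over all rows, two-sided, called at an adjusted p under 0.05. The code was tested on simulated data.

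The genes, lists, tests and naming rule were chosen with earlier results of these data known. The list held 196 gene symbols plus a name search; all its genes with a row were named, as were the 3 rows most correlated with each gene that has every replicate. The labels do not say that replicates came from separate plants, so the spread behind the p-values may be only technical. Alternatives changed the scaling, the zeros, a pseudocount of 0.05, the filter, the replicate unit and each replicate left out.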

Additional observations from a re-analysis of the deposited data

How the results depend on the processing

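In 11 other settings (10 for CCB3, at 0 in some columns) PIFI, CCB3 and PSB27 kept their direction, as did NdhS in 10. In 4 (filter, replicate unit and block) the direction of PIFI, NdhS and PSB27 could not change. PIFI was 1.18 as deposited, 1.33 with mean scaling and 5.55 with zeros at the lowest positive value. CCB3 was 1.48 on the deposited scale, 1.32 with cyclic loess and 0.84 with a pseudocount. NdhS was -0.36 on the deposited scale, -0.21 with mean scaling and 0.81 with median centring, where it reversed, and PSB27 was -0.32 with median centring. Why these values moved was not tested. With 1 replicate left out, PIFI ranged from 2.39 to 2.997, CCB3 from 2.302 to 3.88, NdhS from -0.81 to -0.67 and PSB27 from -1.42 to -1.01. The call by which they were chosen held in 10 of these 10 fits for PIFI, 2 for CCB3, 3 for NdhS and 3 for PSB27, and in 9 of 11 other settings for PIFI, 4 of 10 for CCB3, 5 of 11 for NdhS and 8 of 11 for PSB27. These fits reuse the columns on which the genes were chosen, so the counts are a description and no support for the differences.

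Of the 7 other thylakoid genes, mean scaling called 2 higher and 1 lower, median centring called 4 higher, and the deposited scale called 2 lower; with each replicate left out the counts were 1 higher and 0 lower. Over all rows 808 were called (337 higher, 471 lower), against 2022 on the deposited scale (126 higher, 1896 lower), 1816 with mean scaling (150 and 1666), 1410 with all 10 columns as replicates, and 455 to 965 with 1 replicate left out. The lowest counts were 477, 455, 457 and 505 without WT replicate 1, 2, 3 and 4. Median centring gave 497 higher and 403 lower, cyclic loess 310 and 293, and it was 507 and 440 with zeros ranked, 427 and 318 with zeros at the lowest positive value and 571 and 513 with a pseudocount.

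The replicate numbers were not treated as pairing the genotypes, since not every same-numbered pair correlated above 0.1: the correlations were 0.124, 0.107, 0.0216, 0.0338 and 0.218, and 2 of 5 atpc1-1 replicates correlated best with their own number. With the replicate block 732 rows were called, and CCB3 stood at 3.92. The block gave PIFI, NdhS and PSB27 SEs of 0.40, 0.20 and 0.30.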
